A study of Mus musculus with 2 samples.

Results

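Retinoic acid, the hormone-like product of vitamin A, is made, buffered, degraded and sensed by a small set of gene products, and 9 of these genes were examined in sorted fat stromal cells. They are the retinaldehyde dehydrogenase genes Aldh1a1, Aldh1a2 and Aldh1a3, the binding protein genes Rbp4 and Crabp2, the degrading enzyme gene Cyp26b1 and the receptor genes Rara, Rarb and Rarg. They were picked by name and role, with earlier results of these data known. All 9 had a value among 19938 genes, each from 1 probe set that the platform annotation assigns to that gene alone. The RNA came from PDGFRα+ cells that were sorted with a PE-coupled antibody from the collagenase-released stromal vascular fraction of inguinal white fat. The mice were female, 6 weeks old and given doxycycline at postnatal day 1. They carried floxed Sox9 in the control group and the Sox9 PreASKO genotype in the other, and both groups therefore shared the doxycycline exposure. The driver of the deletion and the cells in which it acts are not given in the sources used here, and Sox9 itself was at 5.25 on the floxed array and 4.97 on the PreASKO array. Each group was 1 array of RNA pooled from 3 mice, so no difference has an error, a replicate check or a p-value.

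Retinol reaches cells bound to the plasma carrier RBP4 and is oxidised first to retinal, by retinol dehydrogenases, and then irreversibly to retinoic acid by the ALDH1A enzymes. In the cell CRABP2 carries retinoic acid to nuclear receptors of the RAR family, which bind DNA together with RXR partners, while CYP26 enzymes oxidise it for disposal. Retinoic acid acting through CRABP2 and RAR is known to hold back the differentiation of preadipocytes, and the ALDH1A enzymes and RBP4 are known products of fat tissue.

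RAR and RXR pairs bind direct repeats of a short half-site, and genes whose own promoters hold such a repeat are classical readouts of retinoic acid. Promoter windows of 250 bases before to 50 bases after the annotated start were taken from RefSeq (GRCm38.p6). They were available for 7 of the 9 genes (13 windows; Aldh1a3 and Crabp2 had no entry) and for 43 of 61 retinoid genes in all (63 windows). The half-sites searched on both strands were AGGTCA or AGTTCA or GGTTCA or GGGTCA, in any pair in the same orientation. A pair spaced by 5 bases was found in 32 of 32851 windows of all genes (0.0974%). Among the retinoid genes it was found in 2 of 63 windows, those of Rarb and of Cyp26a1, the gene of a retinoic acid hydroxylase. These promoters are shown because both genes are textbook targets of the hormone. Their matches are therefore no test against the share of all windows. Only the half-sites of the pair spaced by 5 bases are in capitals, and each sequence is written 5′ to 3′ on the strand of its gene. The Rarb window is chr14:16575427-16575726 on the minus strand and the Cyp26a1 window is chr19:37697558-37697857 on the plus strand.
Rarb: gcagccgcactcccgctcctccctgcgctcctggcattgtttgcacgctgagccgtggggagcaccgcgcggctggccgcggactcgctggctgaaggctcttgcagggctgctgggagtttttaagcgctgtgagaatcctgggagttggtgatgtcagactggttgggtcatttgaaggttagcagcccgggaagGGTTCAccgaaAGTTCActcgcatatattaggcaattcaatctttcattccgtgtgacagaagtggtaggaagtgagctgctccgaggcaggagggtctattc
Cyp26a1: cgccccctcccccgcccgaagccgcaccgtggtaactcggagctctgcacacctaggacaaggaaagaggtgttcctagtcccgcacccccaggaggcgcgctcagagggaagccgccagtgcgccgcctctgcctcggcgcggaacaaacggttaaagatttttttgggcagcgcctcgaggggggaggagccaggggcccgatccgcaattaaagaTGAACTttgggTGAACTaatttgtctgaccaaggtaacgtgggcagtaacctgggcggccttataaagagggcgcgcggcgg
The Rarb repeat lay 53 to 37 bases before the start, and the Cyp26a1 repeat, read on the opposite strand, lay 32 to 16 bases before it. The repeats alone, with the spacer in lower case, were as follows.
Rarb: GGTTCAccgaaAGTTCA
Cyp26a1: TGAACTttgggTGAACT
Pairs spaced by 1 base were found in Bco1 among the retinoid genes and in 0.222% of all windows, and pairs spaced by 2 bases in none of the retinoid genes and in 0.268% of all windows. None of these overlapped the 5-base repeats shown. A match is a description of the letters in this window.

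Array values below are the deposited RMA values on the log2 scale, and each difference is PreASKO minus floxed. A value of 4.64, the higher of the arrays' 95th percentiles over 1027 olfactory receptor genes, was taken as the background mark. The size limit was 1.5-fold (0.585), the one the study itself named. None of the 9 genes reached it. Of all genes 3.64% passed it, 1.66% as higher and 1.98% as lower in PreASKO, and of the 11015 genes above background on both arrays 2.15% passed it. By the background mark 5 of the 9 genes were above background on both arrays (Aldh1a1, Aldh1a3, Rbp4, Rara and Rarg) and 4 were below it on both (Aldh1a2, Crabp2, Cyp26b1 and Rarb). The direction of a difference between values below background is not read here. In a bulk sample, fewer cells that make a transcript and less transcript per cell cannot be told apart.

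**Figure D1:**
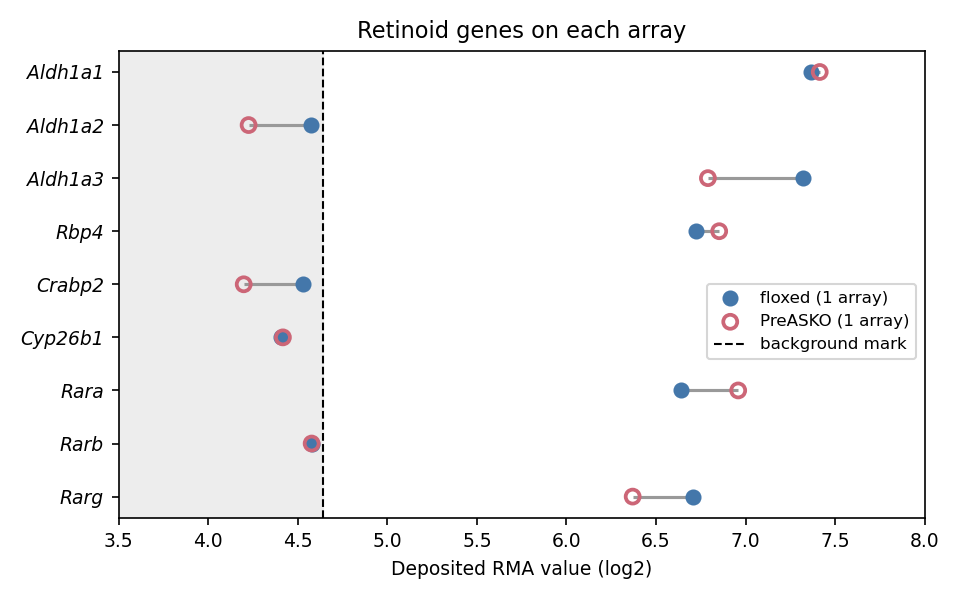
Deposited RMA values (log2) of the 9 retinoid genes, with a filled point for the floxed array and an open point for the PreASKO array, 1 array each; the dashed line is the background mark of 4.64. Aldh1a3 shows the widest gap between the arrays, and Aldh1a2, Crabp2, Cyp26b1 and Rarb lie below the mark on both.

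The genes of the 3 enzymes that make retinoic acid gave different readings: Aldh1a3 was lower in PreASKO, Aldh1a1 was nearly level and Aldh1a2 was below background. Aldh1a3, whose enzyme oxidises retinal with high preference, was at 7.32 on the floxed array and 6.79 on the PreASKO array. That is a difference of -0.53, or 1.44-fold lower in PreASKO and just short of the 1.5-fold limit. A difference at least this large in either direction was seen in 5.14% of all genes. Among the 2633 genes within 0.5 of its mean level it was seen in 2.62%, and 0.912% were at least as far below 0. Aldh1a1, which encodes the enzyme best known from fat and liver, was at 7.37 and 7.41, a difference of 0.05. Among genes of similar level 79.1% differed by at least as much as Aldh1a1. Aldh1a2, which encodes the main retinaldehyde dehydrogenase of the embryo and of mesothelium, was at 4.57 and 4.23 and below background on both arrays. Its floxed value stood at percentile 94.4 of the olfactory receptor genes. Of 8 mesothelial markers 7 were below background on both arrays, among them Upk3b, Msln and Wt1. In mouse Aldh1a1 has a close copy, Aldh1a7, which was at 3.19 and 3.40, below background on both arrays.

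Of the genes for binding and transport, 1 was above background. Rbp4, the retinol carrier that adipocytes also secrete, was at 6.72 on the floxed and 6.85 on the PreASKO array, a difference of 0.13 that 52.2% of genes of similar level matched or passed. Of 7 measured adipocyte markers 4 were below background on both arrays, among them adiponectin (Adipoq) and leptin (Lep), while Fabp4 (10.6 and 10.8), Plin1 (5.46 and 5.41) and Plin4 (4.95 and 5.10) were above it on both. Crabp2, the gene of the protein that delivers retinoic acid to RAR, was at 4.53 and 4.20, below background on both arrays. The related Crabp1, whose product binds retinoic acid in the cytoplasm, was above it at 8.66 and 8.36, a difference of -0.30. So of the cellular retinoic acid binding protein genes only Crabp1 gave signal above the background mark.

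The gene for breakdown, Cyp26b1, was at 4.41 on the floxed and 4.42 on the PreASKO array. Both values were below background, at percentiles 92.1 and 94.4 of the olfactory receptor genes. The other CYP26 genes were likewise below it on both arrays. Cyp26a1, whose promoter is shown above, was at 3.06 and 3.23, and Cyp26c1 was at 4.41 on both.

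The receptor genes split in direction. Rara, which encodes the most widely expressed RAR, was at 6.64 on the floxed and 6.96 on the PreASKO array, a difference of 0.32 or 1.25-fold higher in PreASKO. Among 2833 genes of similar level 13.9% differed by at least as much in either direction, and 8.37% were at least as far above 0. Rarg, known from skin and cartilage, was at 6.71 and 6.37, a difference of -0.34 or 1.26-fold lower in PreASKO. Among 3012 genes of similar level 13.9% differed by at least as much in either direction, and 5.31% were at least as far below 0. Neither difference reached the limit. Rarb, which retinoic acid induces through the repeat shown above, held exactly the same value on both arrays, 4.58, below the common background mark. It stood at percentile 94.4 of the olfactory receptor genes on the floxed and 95.7 on the PreASKO array. The PreASKO array's own 95th percentile was 4.47, so Rarb was above that lower mark. An exactly equal value was found in 758 genes (3.80%), of which 195 were above background. Rara and Rarg kept their directions after loess correction on the mean level and after quantile normalization. With the main values included, they ran from 0.29 to 0.32 and from -0.37 to -0.34.

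**Figure D2:**
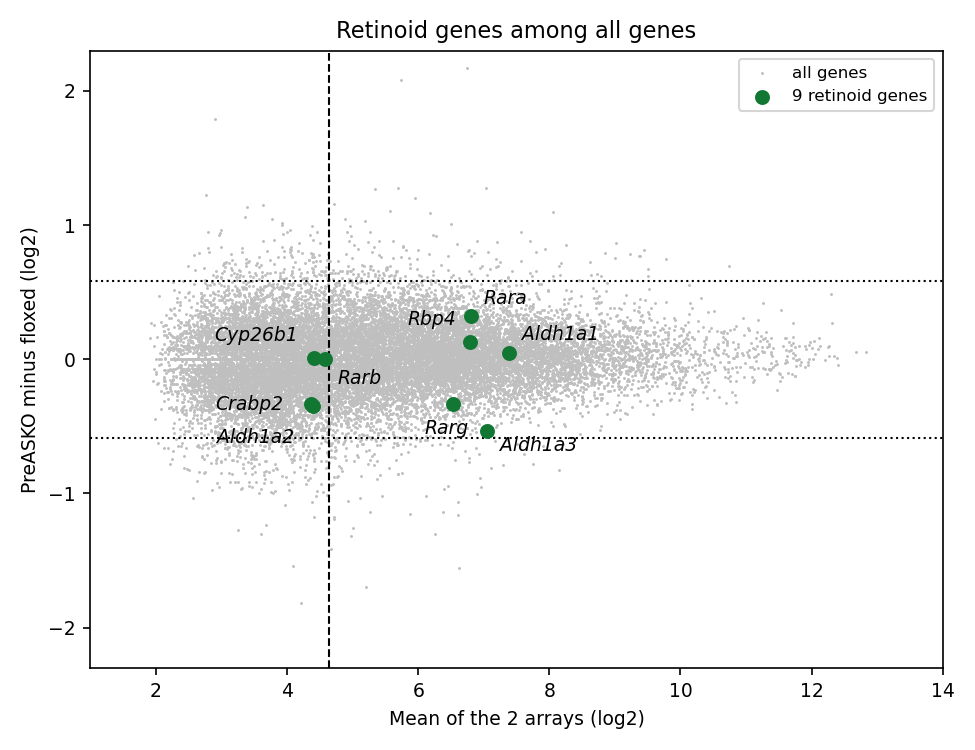
Difference between the arrays (PreASKO minus floxed, log2) against the mean of both arrays (log2) for 19938 genes in grey and the 9 retinoid genes in green; dotted lines mark 1.5-fold and the dashed line the background mark. All 9 lie between the dotted lines, with Aldh1a3 at -0.53 nearest to the lower one.

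Over all 9 genes the median difference was 0, as it was over all genes. Of the 5 above background 3 were higher and 2 lower in PreASKO, with a median of 0.05, against 0.02 over the 11800 genes above it on at least 1 array. Their differences ran from -0.53 (Aldh1a3) to 0.32 (Rara). With 2 arrays every gene has only a single difference, so no gene can be said to share a pattern with these.

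The rest of the pathway was followed through 52 further genes in 6 lists, of which 48 had a value. Of the 48, 33 were above background on both arrays and 15 below it on both. No gene was 1.5-fold higher, and the 1 that was 1.5-fold lower, Gprc5a (3.73 and 3.08), lay below background on both arrays. Across all genes the limit was passed upward by 1.66% and downward by 1.98%. With shares this low, counts of 0 and 1 among 48 genes do not set these lists apart. The median difference was -0.02, against 0 over all genes.

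The enzymes of retinol and retinal interconversion held 8 genes above background, 6 of them lower and 2 higher in PreASKO, with a median of -0.20 over those 8. Of the 11800 genes above background on at least 1 array 5352 were lower and 6253 higher. Dhrs3, a reductase that turns retinal back into retinol and is itself a known retinoic acid target, was at 8.73 on the floxed and 9.12 on the PreASKO array. Its difference of 0.39 was matched or passed in either direction by 5.79% of genes of similar level, and as a rise by 4.27%. In the other direction Adh1, an alcohol dehydrogenase that can oxidise retinol, was at 9.27 and 9.01, a difference of -0.27. The related Adh7 was at 6.99 and 6.72, also -0.27. Rdh5, a retinol dehydrogenase best known from the eye, was at 5.64 and 5.18, a difference of -0.45. Rdh10, the retinol dehydrogenase that feeds retinoic acid synthesis in the embryo, differed by only 0.06 (6.54 and 6.60). Rdh11 and Rdh14, whose enzymes can also reduce retinal, differed by -0.04 and -0.29.

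Storage and supply genes were nearly level where they could be read. Lpl, the lipoprotein lipase that also frees retinol from retinyl esters in lipoproteins, was at 11.2 and 11.0, a difference of -0.16. Dgat1, an acyltransferase that can esterify retinol, differed by 0.09, and Lipe, the hormone-sensitive lipase, by 0.01. Lrat, the retinol esterifying enzyme of stellate cells, was below background on both arrays (3.45 and 3.62), as were Bco1, Ces1d and Ttr. The 4 readable genes ran from -0.16 to 0.09.

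Among binding and uptake genes 5 of 7 measured were above background, 3 higher and 2 lower in PreASKO. Crabp1 is given above. Fabp5, a fatty acid binding protein that can pass retinoic acid to PPARδ, was at 7.15 and 7.17. Stra6, the membrane receptor for RBP4, was at 6.46 and 6.32, a difference of -0.14. Rbp7, a cellular retinol binding protein of fat endothelium, was at 6.22 and 6.49, a difference of 0.26.

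Receptor partners and coregulators differed little between the arrays. The 7 readable members ran from -0.14 to 0.12. Rxra, the main partner of the RARs, was at 6.79 and 6.91, a difference of 0.11. The coactivator genes Ncoa1 and Ncoa3 differed by 0.11 and 0.07. Nrip1, a ligand-dependent corepressor, differed by -0.14.

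Genes that retinoic acid is known to induce stood on both sides of 0. Of 9 above background 6 were lower and 3 higher in PreASKO, with a median of -0.11. Of the 11800 genes above it on at least 1 array 5352 were lower and 6253 higher. Dhrs3, also a known target, is counted with the enzymes above and was higher by 0.39. Rarres2, which encodes the adipokine chemerin, was at 10.9 and 11.0, a difference of 0.05. Tgm2, tissue transglutaminase, was at 7.60 and 7.36, a difference of -0.24. Klf2, a zinc finger factor that holds back adipogenesis, was at 7.62 and 7.49, a difference of -0.12. Klf2, Sox9 and Dlk1 are the preadipocyte genes reported to respond to retinoic acid through CRABP2 and RAR. Sox9 differed by -0.27 and Dlk1 by 0.07. Sox9 was the deleted gene in this design and was above background on both arrays. Its difference was matched or passed in either direction by 30.8% of genes of similar level. Without Sox9, 5 of the 8 remaining genes above background were lower and 3 higher, with a median of -0.06.

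**Figure D3:**
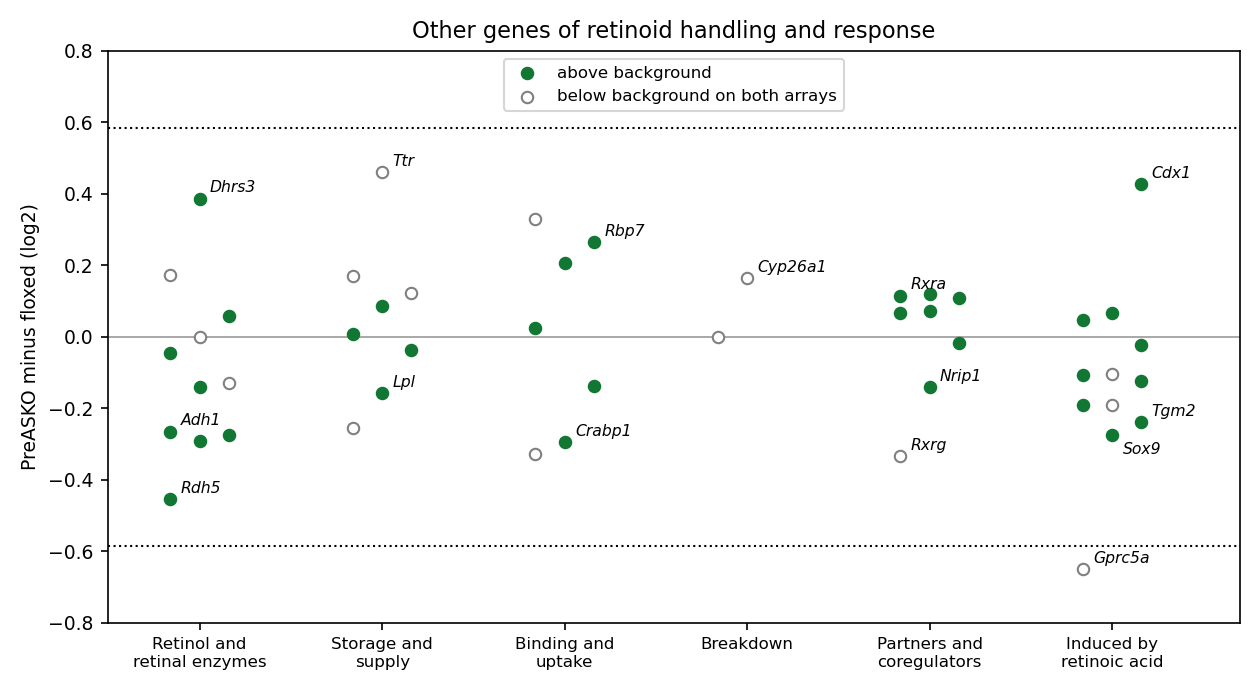
Difference between the arrays (PreASKO minus floxed, log2) of 48 further genes of retinoid handling and response in 6 lists; filled points were above background, open points below it on both arrays, and dotted lines mark 1.5-fold. Every filled point lies between the dotted lines, from -0.45 (Rdh5) to 0.43 (Cdx1).

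Markers of cells other than fibroblasts were present on both arrays, and some lists differed between them. Fibroblast markers were above background in 9 of 9 measured, with a median difference of -0.05, and Pdgfra was at 9.86 and 9.55. All 15 macrophage markers were above background on both arrays and higher in PreASKO, with median levels of 8.94 and 9.53 and a median difference of 0.47. All 9 measured cell cycle genes were lower in PreASKO, with median levels of 5.82 and 4.93 and a median difference of -1.26. Of these 9 genes 5 were above background on both arrays, while Bub1b, Plk1, Tpx2 and Prc1 were below it on the PreASKO array. Of 8 mural cell markers 5 were lower and 3 higher, with median levels of 5.65 and 5.57 and a median difference of -0.25. Above background, Rara, Rbp4, Aldh1a1, Dhrs3 and Rbp7 were among the retinoid genes higher in PreASKO, Aldh1a1 by only 0.05. Aldh1a3, Rarg, Adh1 and Crabp1 were among those lower. The part of macrophages, dividing cells or mural cells in the retinoid differences was not tested.

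Other cell types that can express retinoid genes were also looked for. Dendritic cell markers, from cells known to make retinoic acid in gut tissue, were above background in 5 of 9, and Itgax, Flt3, Xcr1 and Clec9a were below it on both arrays. The lectin gene Cd209a, which macrophages can also express, was at 5.99 and 7.00. Of the 5 readable dendritic markers 4 were higher in PreASKO, with a median difference of 0.24 over the 5, and Cd209a passed the limit. Over all 9 the median levels were 5.20 and 5.44, though 5 of the 9 were lower and the median difference was -0.08. Mammary epithelial markers were above background in 1 of 10 (Krt8, 5.93 and 6.31), and Epcam, Krt5, Krt14, Krt18 and Cdh1 were below it on both arrays. The median levels of the epithelial list were 3.93 and 3.88, though 7 of the 10 were higher and the median difference was 0.14, mostly between values below background. Endothelial markers were above background in 6 of 8, with median levels of 4.99 and 4.83. Of these 6 readable markers 4 were lower and 2 higher in PreASKO, with a median difference of -0.18, and Kdr, a VEGF receptor gene, was 1.61-fold lower. The angiopoietin receptor gene Tek was at 8.17 and 7.98, the highest of the list. Emcn and Tie1 were below background on both arrays, and Pecam1 (4.79 and 4.48) was below it on the PreASKO array.

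**Figure D4:**
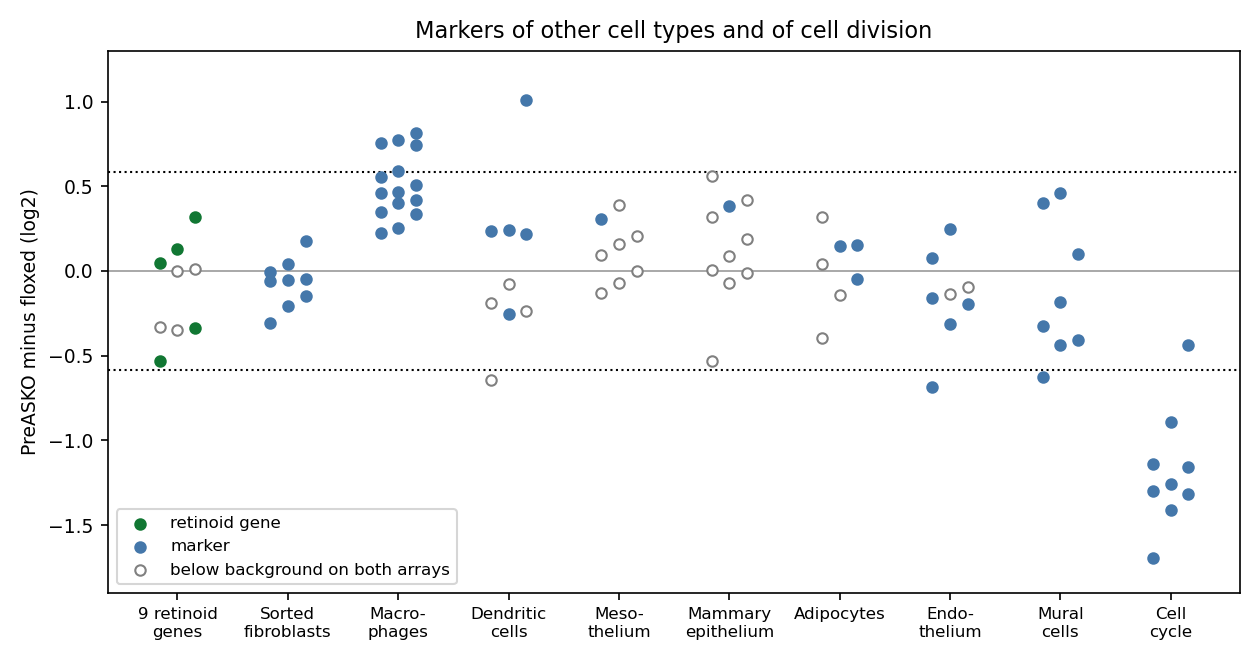
Difference between the arrays (PreASKO minus floxed, log2) of the 9 retinoid genes (green) beside markers of the sorted cells, of other cell types and of cell division (blue); open points were below background on both arrays and dotted lines mark 1.5-fold. The retinoid genes lie between -0.53 and 0.32, the macrophage markers between 0.22 and 0.81 and the cell cycle genes between -1.69 and -0.44.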

How the data were processed

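RMA is the method named by the submitters' processing notes, and the authors deposited 1 value per probe set and array. The log2 scale is inferred from the deposited values, which run from 1.23 to 13.8; version, log base and filters are not given in the sources used here. RMA makes array distributions alike and compresses differences near background. Of 35556 probe sets 21789 name 1 gene, and only these were used, with the highest mean over both arrays where a gene had several. The gene identifiers of all 57 measured retinoid genes were found in RefSeq (GRCm38.p6) with the same symbol.

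With 1 array per group no test was made. Differences were set against 1.5-fold and against all genes or those within 0.5 of the gene's mean level. The members and lists were chosen with earlier results of these data known. Named from the lists were genes past the limit above background and the 3 with the highest mean per list. Rdh5, Rdh10, Rdh11, Rdh14, Rbp7, Rxra, Lrat, Gprc5a, Cdx1, Sox9 and Dlk1 were chosen after their values were seen. So were the genes named only as below background and the promoter repeats. Rdh1, Aldh8a1, Stra6l, Hoxb1 and Rarres1 were named after their shared differences were seen. The counting step was checked on artificial data. Python 3.11.15, pandas 2.3.3, numpy 2.4.6, statsmodels 0.14.6 and matplotlib 3.10.9 were used.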

Additional observations from a re-analysis of the deposited data

How the results depend on the processing

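The 9 differences were recomputed with the mean over probe sets, with centring on the median difference, after loess correction on the mean level (span 0.3) and after quantile normalization. Each of the 9 had 1 probe set, and the median difference over all genes was 0. The mean over probe sets and the centring therefore could not change them. After loess correction and quantile normalization none moved by more than 0.1 or changed sign. Aldh1a3 ran from -0.56 to -0.53, the main value included, always short of 1.5-fold. The count of the 9 past the limit was 0 in every setting, the 2-fold limit included. With values raised to the background mark, the differences of Aldh1a2 and Crabp2 became 0 because both their values lie below it. The count of further retinoid genes at least 1.5-fold lower went from 1 (Gprc5a) to 0 with values raised to background, at the 2-fold limit and with genes above background alone. Over all genes the split of 331 higher and 394 lower became 374 and 343 after quantile normalization and 161 and 103 with values raised to background, where 1.32% of genes passed the limit. Leaving Sox9 out of the genes induced by retinoic acid, an alternative chosen after seeing the data, moved their median above background from -0.11 to -0.06. Leaving out a replicate was not possible either. No paired analysis was possible because a group is a single array.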

Other observations

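The wider aldehyde dehydrogenase family, taken by symbol after the values above were seen, had 21 measured genes, of which 14 were above background on at least 1 array. Of these 8 were lower and 6 higher in PreASKO, with a median of -0.06, and none passed 1.5-fold. Aldh1a3 had the most negative difference of the family. Next was Aldh1l1, a folate enzyme gene, at 4.83 and 4.37 (-0.46), below background on the PreASKO array. Aldh3b1, which acts on lipid-derived aldehydes, was at 5.80 and 5.35 (-0.45). Aldh18a1, an enzyme of proline synthesis, was at 7.49 and 7.13 (-0.35), and Aldh1l2 at 5.87 and 5.59 (-0.29). Aldh2, the mitochondrial acetaldehyde enzyme, was at 8.51 and 8.29 (-0.23). In the other direction stood Aldh3b2 (4.37 and 4.81), below background on the floxed array, and Aldh16a1 (5.38 and 5.61), above it on both.

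Many genes shared exactly the same difference between the arrays. To 5 decimals, 2462 of 19938 genes had a difference held by at least 10 genes, 24.0% of those below background on both arrays and 4.30% of the others. Among the retinoid genes Rarb, Rdh1 and Cyp26c1 differed by exactly 0, a value held by 758 genes. Hoxb1 and Rarres1 both differed by -0.19, a value held by 13 genes to 5 decimals. Aldh8a1 (-0.13) and Stra6l (0.21) each shared their difference with others in groups of 19. The cause of the repeats was not tested.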
